A study of Mus musculus with 16 samples.

Results

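The Myc, Max and Mxd genes were examined in the RNA-seq profiles of 16 primary rhabdoid tumors, each from a different mouse. The set holds 9 genes (Myc, Mycn, Mycl, Max, Mxd1, Mxd3, Mxd4, Mxi1 and Mnt), taken by name from the network, and all 9 were present among the 24982 genes of the count table and the 24951 genes of the TPM table. All mice carried the genotype Smarcb1 flox/flox with R26-CreERT2, a tamoxifen-inducible Cre expressed from the ubiquitous Rosa26 locus, so that no group was free of the deletion and no normal tissue served as control. The tumors fell into 5 Shh tumors within the brain (intra-CNS), 6 Myc tumors inside the skull but outside the brain tissue (intracranial) and 5 Myc tumors outside the skull (back, jaw, mouth or nose, extracranial). Groups were taken from the labelled tumor location. The names Shh and Myc are those of the study, which also used the expression profiles of these tumors to tell the subgroups apart, so that differences in these genes are not independent of the names. Tamoxifen was given at embryonic day 6 (E6) for all 5 Shh tumors and for 2 Myc tumors, at E7 for 1 and at E8 for 8 Myc tumors. The mice were between 30 and 180 days old in the Shh group, between 52 and 170 days in the intracranial and between 80 and 210 days in the extracranial Myc group. By its labels 43990A was an extracranial tumor (nose), and the study's sample list places it inside the skull.

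Myc, Mycn and Mycl encode basic helix-loop-helix leucine zipper transcription factors that bind DNA only as dimers with Max. Max also pairs with the Mxd proteins (Mxd1, Mxd3, Mxd4 and Mxi1) and with Mnt, which recruit Sin3 and histone deacetylases and oppose Myc at the same sites, the E-boxes. In development Mycn marks neural progenitors, Mycl is found in several embryonic tissues, and Myc is used widely by dividing cells.

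The genes lie on 8 chromosomes of the mouse genome (GRCm38). Myc lies at chr15:61985391-61990374 on the plus strand, Mycn at chr12:12936093-12941914 on the minus strand, Mycl at chr4:122995652-123002485 on the plus strand and Max at chr12:76937269-76962201 on the minus strand. Mxd1 lies at chr6:86647042-86669161, Mxd3 at chr13:55325168-55329823 and Mxd4 at chr5:34173883-34187720, each on the minus strand. Mxi1 lies at chr19:53310518-53375810 and Mnt at chr11:74830920-74845725, both on the plus strand. Of these genes, Mxd3 overlaps another gene of the count table, with 105 bases shared with Prelid1 on the opposite strand. The libraries were stranded, but the strand used in counting is not given in the sources used here.

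Promoter windows from RefSeq (GRCm38.p6), from 250 bases before to 50 bases after a start site, were found for 8 of the 9 genes; Myc had no entry. The letters CACGTG, the canonical E-box, stood in the windows of 3 genes (Max, Mnt and Mxd4), against 7.15% of all 32851 windows. The E-box of Max lay across its start site. The stretches around the E-boxes of Mxd4 and Mnt are shown because both genes are partners of Max at such sites, and the Mycn stretch because Mycn differed most between the subgroups. Capitals mark CACGTG in the first 2 lines. In the third they mark TTTGGCGC and TTTCGCGC on either strand, which are forms of the E2F motif and overlap each other. These were searched after the Mycn sequence had been seen.
Mxd4, chr5:34187900-34187953, minus strand, E-box starting 219 bases before the start site: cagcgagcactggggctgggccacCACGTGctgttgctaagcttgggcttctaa
Mnt, chr11:74830777-74830830, plus strand, E-box starting 123 bases before the start site: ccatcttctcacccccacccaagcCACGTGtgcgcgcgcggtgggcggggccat
Mycn, chr12:12941915-12942086, minus strand: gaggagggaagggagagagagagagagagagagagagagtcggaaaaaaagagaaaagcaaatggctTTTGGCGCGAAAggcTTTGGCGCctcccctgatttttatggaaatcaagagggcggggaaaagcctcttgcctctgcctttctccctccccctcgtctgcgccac
Either E2F form was present within 250 bases before the start site in 0.654% of all windows and, among the 8 matched genes, in Mycn alone. These matches describe letters in a window and show no binding.

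Total counts lay between 17889968 and 110177889 per tumor. Smarcb1, the deleted gene, had between 3.99 and 58.1 TPM, and the values do not separate the floxed part of the gene from the rest. The tumors of 4 mice stood apart in choroid plexus, oligodendrocyte or pituitary markers. R26P115 (intracranial Myc) had a summed level of 5 choroid plexus markers of 204847 TPM, of which Ttr made up 199516 TPM and each of the other 4 at least 1159.5 TPM, and the lowest summed level of 10 proliferation markers (173 TPM). 29048 (Shh) had 4638 TPM of the choroid plexus markers and 6295 TPM of 6 oligodendrocyte markers, against at most 9.73 and 154 TPM in the other 14 tumors. In 29048 Ttr made up 4535 TPM of the choroid plexus sum, and the other 4 markers lay between 8.44 and 32.8 TPM. The summed level of 5 pituitary markers was 423 TPM in 43989C and 328 TPM in R26P170, both intracranial Myc tumors, and at most 16.3 TPM in the other 14. The Smarcb1 level was highest in 2 of these 4 tumors, at 58.1 TPM in 29048 and 43.7 TPM in R26P115. The sum of 11 immune markers lay between 669 and 1094 TPM in the Shh tumors and between 814 and 8125 TPM in the Myc tumors. The sum of 8 neuronal markers lay between 224 and 4086 TPM in the Shh tumors and between 20.2 and 482 TPM in the Myc tumors. The sum of 6 skeletal muscle markers was 606 TPM in R26P123, and the next highest was 136 TPM in 43825B. For 5 endothelial markers the sum was 425 TPM in 43992A, and the next highest was 213 TPM in R26P87. The part of these cell types in the differences described here was not tested. In bulk tumors, fewer cells of a type and less RNA per cell cannot be told apart.

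The comparison of Shh with Myc tumors asked which member of the Myc family each subgroup expressed. The subgroups used different paralogs. Shh tumors had high Mycn and Mycl and low Myc. Myc tumors had almost no Mycn or Mycl and, with the exception of R26P115, high Myc. With edgeR's quasi-likelihood test and Benjamini-Hochberg adjustment over 21854 genes, and with genes called where the adjusted p was below 0.05 and expression differed by more than 1 on the log2 scale, 2 of the 9 genes were higher in Shh tumors (Mycn and Mycl), 1 was lower (Myc) and 6 did not pass. Of all genes tested, 12.9% were called higher and 13.1% lower in Shh tumors.

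Mycn, the paralog of neural progenitors, had 34.4 TPM in 29048, 112 in 38594A, 327 in 29050A, 279 in R26P98 and 377 in R26P87. In the intracranial Myc tumors it ranged from 0 in R26P115 over a median of 0.183 to 0.492 TPM. In the extracranial Myc tumors it was at 0.808 TPM in 43825B, 1.40 in 43987A, 2.47 in 43990A, 0.427 in 43998A and 0.794 in R26P123. The groups did not overlap, and the lowest Shh tumor was 29048. Mycn was 245-fold higher in Shh than in Myc tumors (log2 fold change 7.94 ± 0.81 SE, edgeR adjusted p = 7.67e-06). The size depended on the scale, with a difference of 6.78 on log2(TPM + 1) and 8.36 on log2(TPM + 0.1). In the Myc tumors Mycn had at most 88 counts. The Shh values rested on 1052 to 21738 counts, and no read was counted in R26P115, where 3 counts would be 0.113 CPM.

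Mycl, the third paralog, had 35.5 TPM in 29048, 71.0 in 38594A, 72.2 in 29050A, 76.0 in R26P98 and 85.9 in R26P87. In the intracranial Myc tumors its level ranged from 0.323 over a median of 1.01 to 2.12 TPM. In the extracranial Myc tumors it was 1.14, 0.599, 1.65, 1.66 and 1.63 TPM in 43825B, 43987A, 43990A, 43998A and R26P123. The groups did not overlap, 4 of the 5 Shh tumors lay close together, and 29048 was again the lowest. The difference was 39.9-fold (log2 fold change 5.32 ± 0.37 SE, edgeR adjusted p = 3.12e-07). It was 4.97 on log2(TPM + 1) and 5.84 on log2(TPM + 0.1).

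Myc had 13.8 TPM in 29048, 28.4 in 38594A, 9.31 in 29050A, 12.4 in R26P98 and 28.8 in R26P87. In the extracranial Myc tumors its level was 87.0 in 43825B, 130.5 in 43987A, 203 in 43990A, 94.2 in 43998A and 193 TPM in R26P123. Among the intracranial Myc tumors the lowest was 8.73 TPM in R26P115, the median 118 and the highest 225 TPM in R26P170. By TPM, Myc was above every Shh tumor in 10 of the 11 Myc tumors and below every Shh tumor in R26P115. On the TMM log2 CPM scale R26P115 (3.48) lay within the Shh range of 2.87 to 4.45. Myc was 9.98-fold lower in Shh tumors (log2 fold change -3.32 ± 0.54 SE, edgeR adjusted p = 0.000279). Without R26P115 and 29048, an alternative added after the data were seen, the log2 fold change was -3.36 for Myc, 8.08 for Mycn and 5.39 for Mycl, and all 3 genes stayed past the threshold. Without 43989C and R26P170, added in the same way, the values were -3.25, 7.69 and 5.15, again all past the threshold.

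**Figure D1:**
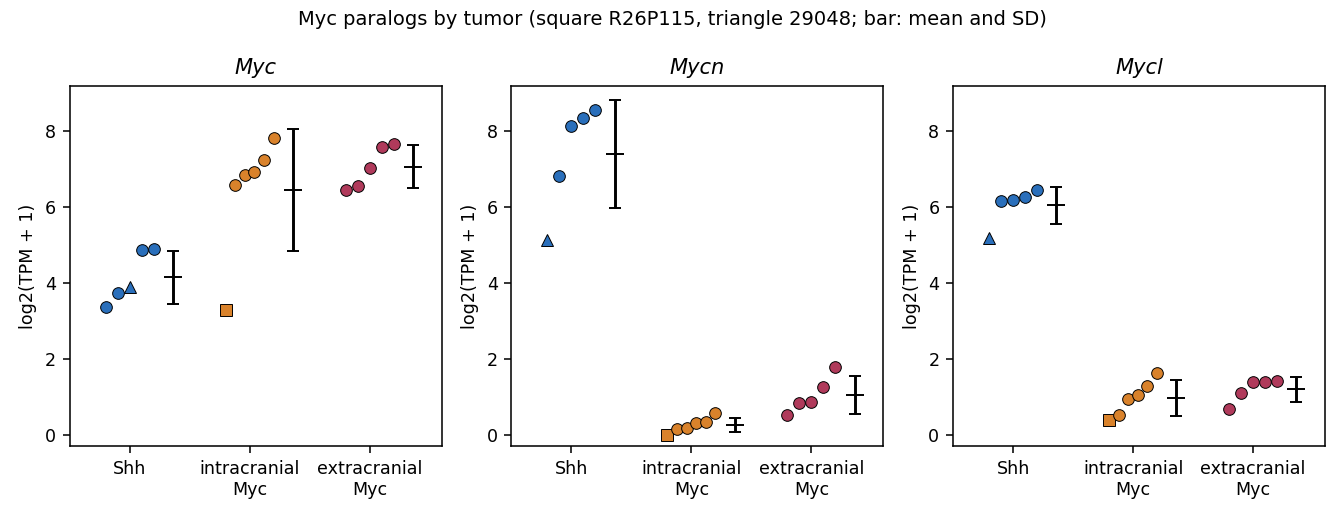
Levels of Myc, Mycn and Mycl as log2(TPM + 1) in each tumor, for 5 Shh, 6 intracranial Myc and 5 extracranial Myc tumors. Each point is a tumor, and the black bar gives the group mean with its SD. Mycn and Mycl of the Shh tumors lie above all Myc tumors, and for Myc the tumor R26P115 (square) lies just below the lowest Shh tumor.

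Set on 1 scale per gene length, the sum of the 3 paralogs was between 83.8 and 492 TPM in the Shh tumors (mean 312 ± 163 SD, n = 5). It was between 88.9 and 207 TPM in the extracranial Myc tumors (mean 144 ± 54.9 SD, n = 5) and between 9.05 and 227 TPM in the intracranial Myc tumors (mean 121 ± 71.0 SD, n = 6). The ranges of the groups overlapped, with the Shh tumors 29048 (83.8 TPM) and 38594A (211 TPM) within the range of the Myc tumors. Myc made up at least 96.4% of the sum in every Myc tumor, R26P115 included, and between 2.28% and 16.5% in the Shh tumors. In the Shh tumors Mycn made up 41.1% to 80.0% and Mycl 17.5% to 42.4% of the sum. The share of Mycl was the highest in 29048, where Mycn was lowest, and the shares of Mycn and Mycl were nearly equal there. These shares are descriptions, since the sum has no test of its own.

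**Figure D2:**
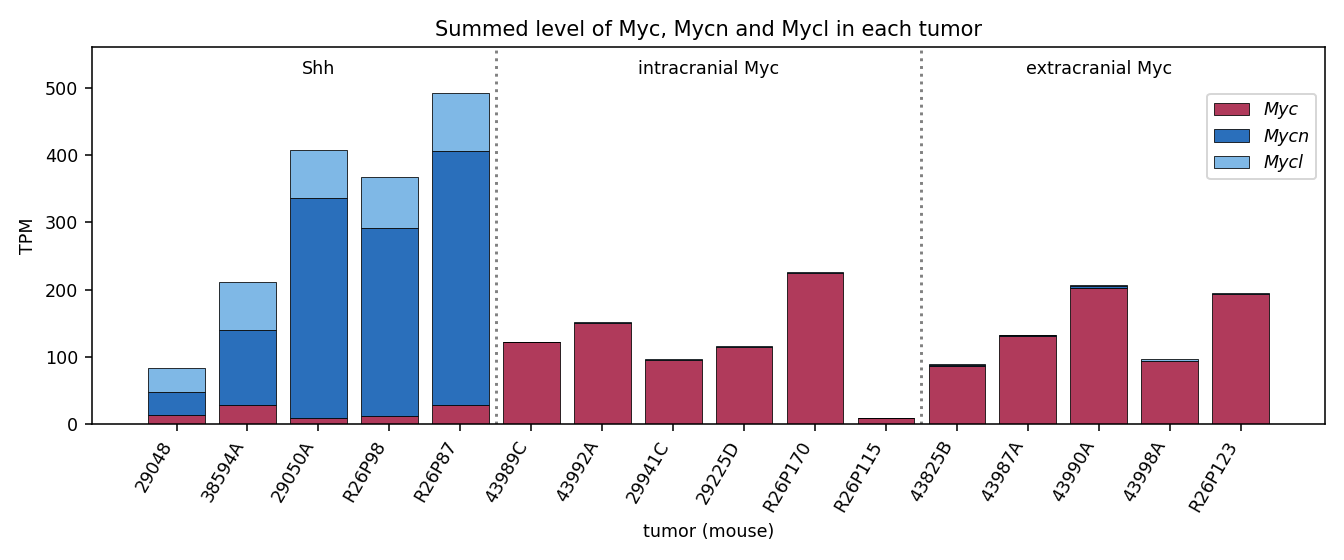
Summed TPM of Myc, Mycn and Mycl in each tumor, stacked by gene, with tumors named by mouse and separated by group. Shh bars are made mostly of Mycn and Mycl, and Myc bars almost wholly of Myc. The lowest sum is 9.05 TPM in R26P115 and the highest 492 TPM in R26P87.

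Tumors induced at the same day gave the same order. Among the tumors induced at E6 (5 Shh and 2 Myc), the edgeR log2 fold change was -3.64 for Myc, 8.38 for Mycn and 5.36 for Mycl (adjusted p = 0.00522, 0.0114 and 0.00136). In mice whose names begin with a number (3 Shh and 8 Myc), the 3 genes were also past the threshold, at -3.46, 7.10 and 4.97. In mice named R26P (2 Shh and 3 Myc), the values were -3.30, 9.52 and 5.79 with edgeR adjusted p between 0.154 and 0.308, and edgeR called 0 of all genes at that size, where 3514 had an unadjusted p under 0.05. The labels do not say what the names stand for.

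Max, the obligate partner, was well expressed in all tumors. It had 99.0 TPM in 29048, 90.9 in 38594A, 98.2 in 29050A, 83.6 in R26P98 and 91.1 in R26P87. Its level in the 11 Myc tumors ranged from 59.6 TPM in R26P115 over a median of 88.1 to 130.3 TPM in 43992A, on both sides of the Shh range. On the TMM log2 CPM scale of the test the Shh tumors lay between 5.99 and 6.23, R26P115 lay within that range, and the other 10 Myc tumors were above it, from 6.31 to 7.24. The log2 fold change by edgeR was -0.49 ± 0.16 SE (adjusted p = 0.0264), under the fold threshold. Its sign depended on the scale. On log2(TPM + 1) the difference was 0.07 (limma, adjusted p = 0.744). The median gene, over those averaging 50 or more counts, was itself shifted by 0.47 towards the Shh tumors on log2(TPM + 1) (14803 genes), and by -0.11 in edgeR after TMM normalization (14807 genes). Relative to that shift Max was lower in Shh tumors on both scales.

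The antagonists were less different between the subgroups than the paralogs, and none of the 5 passed the threshold. Mxd1, which is induced as many cells leave the cycle, had 21.1, 20.5, 25.5, 20.8 and 19.0 TPM in 29048, 38594A, 29050A, R26P98 and R26P87. Its level in the Myc tumors ran from 4.29 over a median of 13.7 to 16.9 TPM. The TPM values of the subgroups did not overlap, as for 15.3% of all genes. The difference depended on the scale, with an edgeR log2 fold change of 0.28 ± 0.26 SE (adjusted p = 0.428) and 0.84 on log2(TPM + 1) (limma, adjusted p = 0.0110). Neither value reached the fold threshold. In the R26P mice alone, the edgeR value was -0.23.

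Mxi1, the Mxd protein also named Mxd2, had 61.9 to 107 TPM in the Shh tumors and 27.4 to 80.1 TPM in the Myc tumors. Of the 5 Shh tumors, 2 were above all Myc tumors. Its edgeR log2 fold change was 0.19 ± 0.23 SE (adjusted p = 0.549), and the difference on log2(TPM + 1) was 0.74 (limma, adjusted p = 0.0134), under the fold threshold and on the scale that carries the shift given with Max. Mxd4, the most abundant antagonist by TPM in the Myc tumors, ranged from 58.4 to 113 TPM in the Shh tumors and from 41.0 to 98.8 TPM in the Myc tumors. Mnt, a widely expressed partner of Max, ranged from 28.4 to 45.5 TPM in the Shh and from 14.8 to 68.5 TPM in the Myc tumors. The edgeR log2 fold changes were -0.26 ± 0.23 SE for Mxd4 (adjusted p = 0.405) and -0.40 ± 0.29 SE for Mnt (adjusted p = 0.292). On log2(TPM + 1) they were 0.28 and 0.22, under the shift of 0.47 of the median gene on that scale, so that both values lay below that of the median gene on both scales. The 95% intervals of the edgeR values, at the degrees of freedom of the test, ran from -0.76 to 0.24 for Mxd4 and from -0.999 to 0.21 for Mnt.

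Mxd3, the Mxd gene expressed in cycling cells, varied most among the antagonists. It had 9.35 TPM in 29048, 33.3 in 38594A, 24.9 in 29050A, 48.1 in R26P98 and 33.9 in R26P87. In the extracranial Myc tumors its level was 15.9 in 43825B, 12.2 in 43987A, 35.0 in 43990A, 16.7 in 43998A and 17.3 TPM in R26P123. In the intracranial Myc tumors it ranged from 1.19 TPM in R26P115 over a median of 6.61 to 14.8 TPM in 29225D. Shh and extracranial Myc tumors overlapped, and 4 of the 5 Shh tumors were above all intracranial Myc tumors. Over all Myc tumors, the edgeR log2 fold change was 0.76 ± 0.56 SE (adjusted p = 0.303). It was 0.080 in mice whose names begin with a number and 1.91 in R26P mice alone (edgeR adjusted p = 0.934 and 0.393). On log2(TPM + 1) it was 1.40 (limma, adjusted p = 0.0667).

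**Figure D3:**
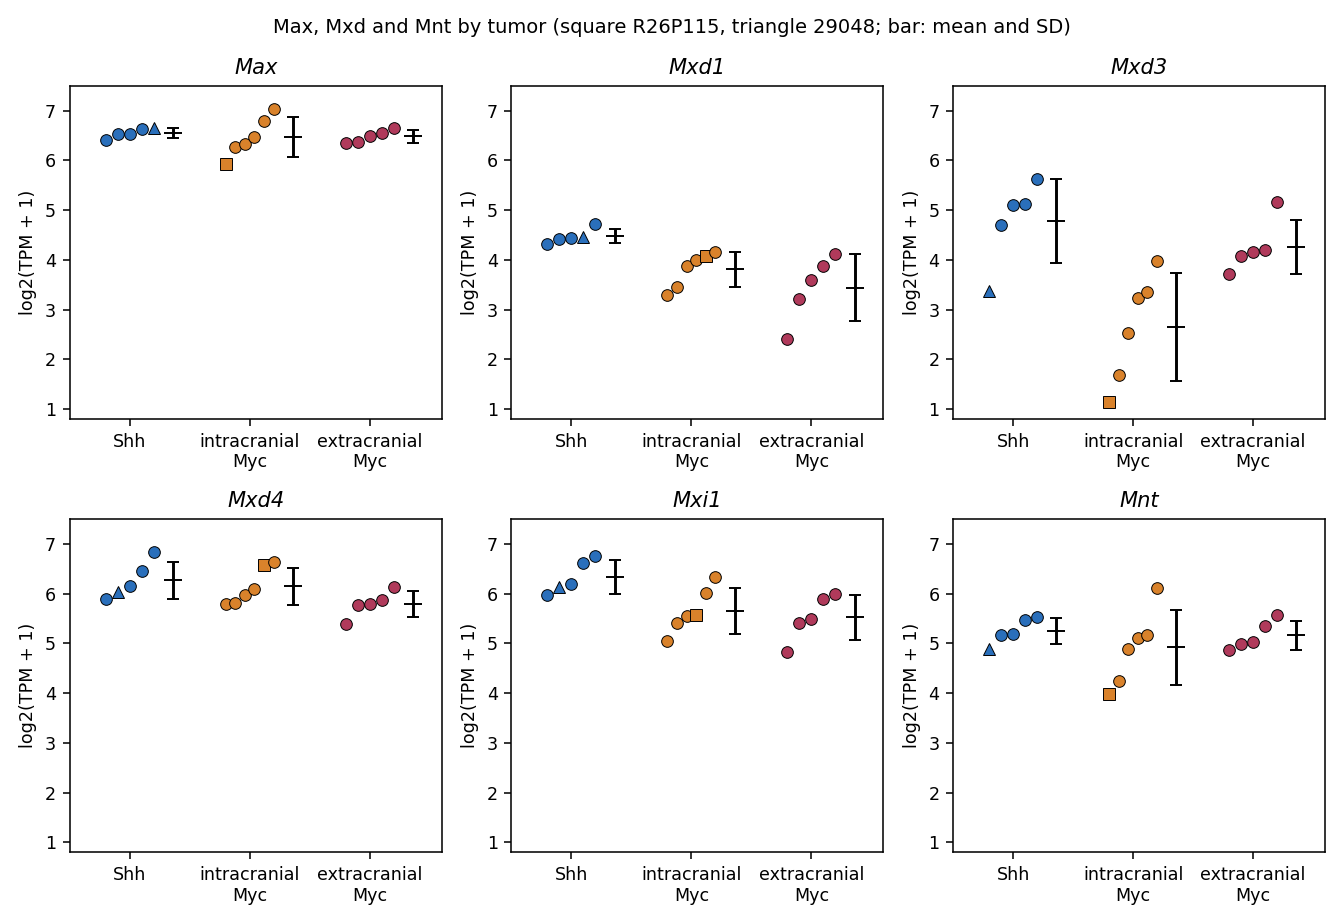
Levels of Max, Mxd1, Mxd3, Mxd4, Mxi1 and Mnt as log2(TPM + 1) in each tumor by group. Points are tumors, and black bars give the mean and SD. Max stays between 59.6 and 130.3 TPM in all tumors, while Mxd3 spans 1.19 to 48.1 TPM.

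The proliferation markers moved in part with Mxd3. As for Mxd3, 4 of the 5 Shh tumors had a marker sum above all intracranial Myc tumors. In 38594A, 29050A, R26P98 and R26P87 the sum was 770, 871, 1025 and 1261 TPM, beside Mxd3 levels of 24.9 to 48.1 TPM. R26P115, R26P170 and 29048 had the lowest summed levels of the 10 proliferation markers (173, 295 and 305 TPM), with Mxd3 at 1.19, 4.76 and 9.35 TPM. 43992A, 29941C and 43989C had as little Mxd3 (2.20, 8.45 and 9.24 TPM) with 684, 686 and 643 TPM of the markers. 43990A had the highest Mxd3 of the Myc tumors and 1196 TPM of the markers. The part of cycling cells in the Mxd3 values was not tested.

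**Figure D4:**
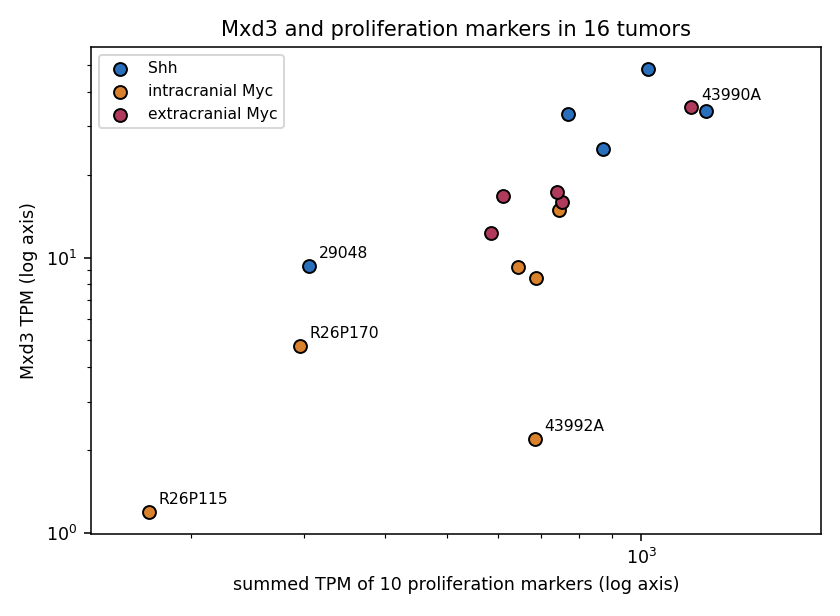
Mxd3 level (TPM, log axis) against the summed TPM of 10 proliferation markers (log axis) in 16 tumors, colored by group. The 5 tumors named by mouse are those with the lowest marker sums (173, 295 and 305 TPM), the low Mxd3 value of 43992A (2.20 TPM) and the highest Myc tumor, 43990A.

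The order of the 9 genes by level per length also differed. In the Shh tumors Mycn stood first (median 279 TPM) and Myc last (median 13.8 TPM), but Mycn was above Max in 4 of 5 tumors and Mxd1 above Myc in 3 of 5. Mycl, Mxd4 and Mxi1, with medians between 69.9 and 72.2 TPM, were not separated beyond their spread. In the extracranial Myc tumors Myc stood first (median 130.5 TPM), followed by Max (89.1 TPM), and Myc exceeded Max in 4 of 5 tumors. In the intracranial Myc tumors Max and Myc had mean log2(TPM + 1) values 0.02 apart, with an SD of 1.41, and Myc exceeded Max in 4 of 6 tumors. Mycl and Mycn were the lowest of the 9 in both Myc groups. In the extracranial tumors their order was not separated, with Mycl above Mycn in 3 of 5 tumors.

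The summed level of Mxd1, Mxd3, Mxd4, Mxi1 and Mnt was 192 to 308 TPM in the Shh tumors and 133 to 233 TPM in the Myc tumors. The ratio of this sum to that of the 3 Myc paralogs lay between 0.535 and 2.29 in the Shh tumors. In the Myc tumors it lay between 0.963 and 1.53 in 10 tumors and was 19.1 in R26P115. No test was made of these sums.

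Each site of Myc tumors was also set against the Shh tumors in 1 fit with 3 groups, in which both comparisons share the Shh tumors. Mycn was higher in Shh tumors by 9.50 ± 0.86 SE on the log2 scale against the intracranial and by 7.09 ± 0.84 SE against the extracranial Myc tumors (edgeR adjusted p = 1.29e-05 and 6.18e-05). Mycl was higher by 5.46 ± 0.49 SE and 5.16 ± 0.52 SE (adjusted p = 1.15e-05 and 2.67e-05). Myc had log2 fold changes of -3.22 ± 0.58 SE and -3.43 ± 0.59 SE (adjusted p = 0.00102 and 0.000724). Against the intracranial Myc tumors 23.0% of all genes were called and against the extracranial ones 25.0%. Mxd3 passed the threshold against the intracranial tumors (log2 fold change 1.65 ± 0.54 SE, edgeR adjusted p = 0.0334), and its value against the extracranial tumors was 0.12 ± 0.56 SE (adjusted p = 0.905). The call of Mxd3 was lost on omission of any of 38594A, R26P98, R26P87, 43992A or R26P170 (adjusted p up to 0.0864), of 43989C and R26P170 together (log2 fold change 1.64, adjusted p = 0.0903), and with 43990A counted as intracranial (log2 fold change 0.998, adjusted p = 0.240). On log2(TPM + 1), which carries the shift of the median gene towards the Shh tumors (0.45 here), Mxd1 was past the threshold against the extracranial tumors (1.04, limma adjusted p = 0.00856), as were 17.3% of all genes in that direction. Its edgeR value was 0.50 ± 0.30 SE (adjusted p = 0.225).

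The comparison of the sites within the Myc tumors asked whether the network differed between intracranial and extracranial tumors of the same subgroup. None of the 9 genes passed the threshold, and of 21261 genes tested 0.00470% did (1 gene), with 2606 at an unadjusted p under 0.05. Mycn, at under 3 TPM throughout, was lower in the intracranial tumors, with 5 of the 6 below every extracranial tumor (log2 fold change -2.48 ± 0.84 SE, edgeR unadjusted p = 0.0122, adjusted p = 0.348). It rested on 0 to 35 counts in the intracranial and 15 to 88 counts in the extracranial tumors. DESeq2's Wald test called it (-2.43, adjusted p = 0.0153) among 490 genes called (2.30%). With 43990A as intracranial, the edgeR value was -0.76 (adjusted p = 0.818). The difference of Mxd3 was -1.52 ± 0.57 SE (edgeR unadjusted p = 0.0210, adjusted p = 0.366), and it was -0.58 with 43990A as intracranial. Here too 5 of the 6 intracranial tumors were below every extracranial tumor. The same was true of the sum of the immune markers, at 814 to 5602 TPM in the intracranial and 3584 to 8125 TPM in the extracranial tumors. The sum of the skeletal muscle markers was 3.32 to 80.4 TPM in the intracranial and 12.8 to 606 TPM in the extracranial tumors. For the pituitary markers the sums were 0.855 to 423 TPM and 0.640 to 1.43 TPM in the same order. For the 10 proliferation markers they were 173 to 746 TPM and 585 to 1196 TPM. Of these 10, Mki67 alone did not overlap between the sites (2.11 to 32.7 TPM and 34.3 to 89.8 TPM). The part of these cells in the site values was not tested. The 7 other genes had log2 fold changes between -0.31 and 0.43.

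**Figure D5:**
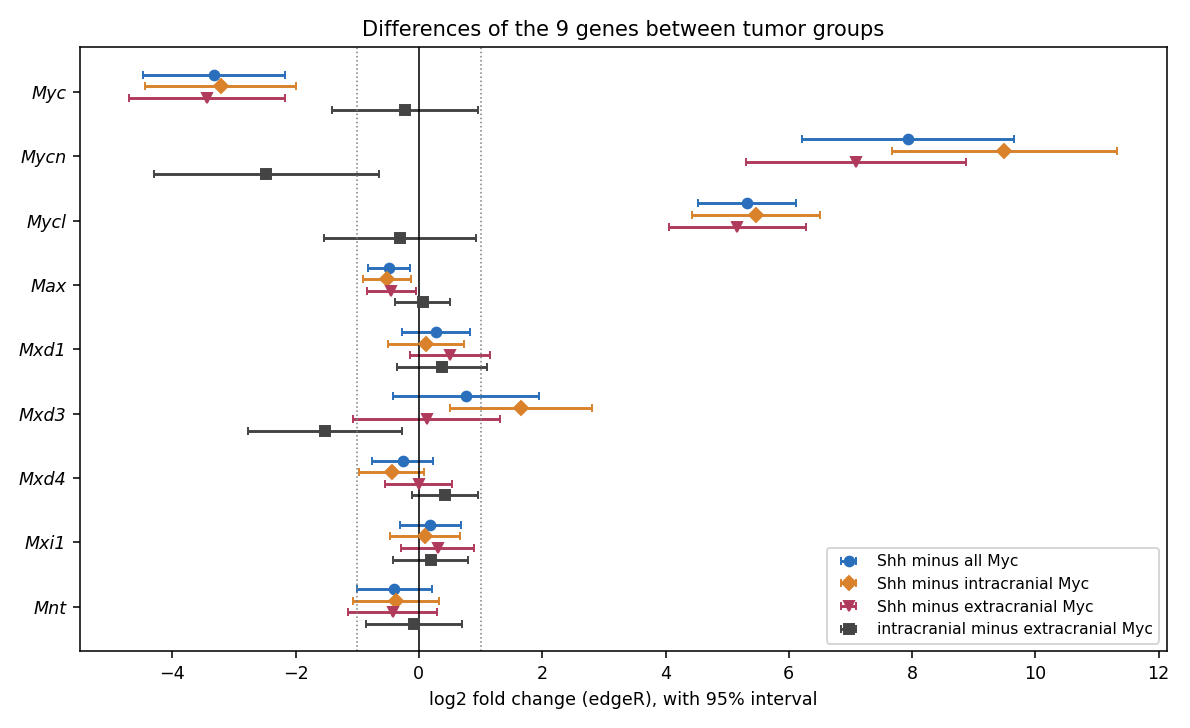
Log2 fold changes of the 9 genes from edgeR with 95% intervals, for Shh against all Myc, intracranial Myc and extracranial Myc tumors and for intracranial against extracranial Myc tumors. Dotted lines mark the fold threshold. The 3 paralogs lie far from 0 in each comparison with the Shh tumors, and the intervals of Mycn and Mxd3 between the Myc sites do not reach 0 but their adjusted p is 0.348 and 0.366.

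Since all Shh tumors were induced at E6, the day could be set apart from the subgroup within the Myc tumors alone. Of the 11 tumors, the 8 induced at E8 were compared with the 3 induced at E6 or E7. edgeR called 0 of 21261 genes (0%), with 747 at an unadjusted p under 0.05, DESeq2 called 39 and limma on log2(TPM + 1) called 0. None of the 9 genes had an unadjusted p under 0.05 by edgeR, DESeq2 or limma. Their log2 fold changes lay between -0.17 for Myc and 0.59 for Mycn, with SE from 0.22 for Max to 1.25 for Mycn.

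The genes beside the paralogs and the other Myc-like genes of the mouse were examined next. Of 5 such genes, 1 was lower in Shh tumors, near the 13.1% of all genes, and 4 did not pass. Pvt1, a non-coding RNA gene that starts 47611 bases beyond the end of Myc at chr15:62037986-62378096, had 5.71, 5.91, 1.65, 1.69 and 5.03 TPM in 29048, 38594A, 29050A, R26P98 and R26P87. Its level was between 1.10 TPM in R26P115 and 15.6 TPM in the Myc tumors, with a median of 10.2 TPM. By TPM, as for Myc, 10 of the 11 Myc tumors were above every Shh tumor and R26P115 was below. The log2 fold change was -1.79 ± 0.49 SE (edgeR adjusted p = 0.0105), but it did not pass on log2(TPM + 1) (-1.05, limma adjusted p = 0.0620) or in tumors induced at E6 (-1.34, edgeR adjusted p = 0.153). Bmyc, a mouse relative of Myc without its DNA-binding part, was named after its values were seen. It had 42.0 to 77.2 TPM in the Shh and 19.3 to 109 TPM in the Myc tumors (edgeR log2 fold change 0.03 ± 0.32 SE, adjusted p = 0.949). The subgroups overlapped.

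The wider network gave few calls between Shh and Myc tumors. Of all genes, DESeq2 called 14.4% higher and 14.7% lower in Shh tumors, and limma on log2(TPM + 1) called 18.7% higher and 5.98% lower. A further list held Mlx, a Max-like protein, its glucose-sensing partners Mlxip and Mlxipl, and Mga. Of these 4 genes, 0 passed with edgeR, and 1 had an unadjusted p under 0.05, as did 44.4% of all genes. DESeq2 called 0 of them, and limma on log2(TPM + 1) called 1, higher in Shh tumors. Their median log2 fold change was -0.18, against -0.15 over all genes tested. Of 6 corepressors of Mxd and Mnt, 1 was higher in Shh tumors, near the 12.9% of all genes, and the median was 0.18. Hdac2, a histone deacetylase of these complexes, had an adjusted p under 0.05 below the fold threshold (log2 fold change 0.93 ± 0.18 SE, edgeR adjusted p = 0.00102), and it passed against the intracranial Myc tumors (1.10, adjusted p = 0.00107). It was named after its values were seen. The gene that passed was Sap30, a subunit of the Sin3 complex. It had 40.8, 116, 144, 208 and 160.0 TPM in 29048, 38594A, 29050A, R26P98 and R26P87 and 11.1 to 37.1 TPM in the Myc tumors, without overlap (log2 fold change 1.93 ± 0.32 SE, edgeR adjusted p = 0.000301). In the tumors induced at E6 alone its value was 1.33 (edgeR adjusted p = 0.160). Of 10 Myc cofactors 0 passed the edgeR threshold and 2 had an adjusted p under 0.05 below the fold threshold, against 33.1% of all genes at that p, and the median was 0.16. DESeq2 called 0 of them and limma on log2(TPM + 1) called 1.

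Of 7 genes of Myc protein turnover, 2 were higher in Shh tumors, where 12.9% of all genes were, and 5 did not pass, with a median of 0.03. Fbxw7, the ubiquitin ligase subunit that marks phosphorylated Myc proteins for degradation, had 67.9, 45.8, 30.1, 22.8 and 29.9 TPM in 29048, 38594A, 29050A, R26P98 and R26P87. In the Myc tumors it had 6.46 to 17.5 TPM, and the groups did not overlap (log2 fold change 1.40 ± 0.27 SE, edgeR adjusted p = 0.000935). Usp28, a deubiquitinase that counters Fbxw7 on Myc, had 26.3 to 40.1 TPM in the Shh tumors and 5.71 to 14.6 TPM in the Myc tumors (log2 fold change 1.09 ± 0.21 SE, edgeR adjusted p = 0.00102). Among the Shh tumors the order of Fbxw7 was that of the neuronal marker sum, which was 4086, 2588, 621, 224 and 572 TPM in the same 5 tumors. The Myc tumors did not follow that order. There R26P115 had the highest Fbxw7 (17.5 TPM) and the lowest neuronal sum (20.2 TPM). The lowest Fbxw7 (6.46 TPM) and the highest neuronal sum (482 TPM) were both in 43998A. The part of neurons in the Fbxw7 values was not tested. In tumors induced at E6 the Fbxw7 value was 1.46 (edgeR adjusted p = 0.0595), and in R26P mice alone 0.42 (adjusted p = 0.591).

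Of 20 genes taken as known Myc targets, 2 were lower in Shh tumors, 0 higher and 18 did not pass. A further 3 had an adjusted p under 0.05 below the fold threshold, which makes 5 of 20 at that p, against 33.1% of all genes. The median log2 fold change was -0.53, against -0.15 over all genes, and 13.1% of all genes were called lower. Ldha, the lactate dehydrogenase subunit of glycolysis, had 189.8, 289.6, 108, 470.2 and 133 TPM in 29048, 38594A, 29050A, R26P98 and R26P87. In the Myc tumors it had 513 to 1118 TPM, R26P115 being the lowest, without overlap (log2 fold change -2.24 ± 0.33 SE, edgeR adjusted p = 0.000121). Hk2, a hexokinase of the same pathway, ranged from 3.74 to 7.52 TPM in the Shh tumors and from 4.17 to 58.1 TPM in the Myc tumors, and the groups overlapped. Its log2 fold change was -2.40 ± 0.65 SE (edgeR adjusted p = 0.0101), and -1.25 on log2(TPM + 1) (limma adjusted p = 0.0808). The 3 under the fold threshold, named after their values were seen, were also lower in Shh tumors. They were Gnl3 (-0.79, edgeR adjusted p = 0.0311), Npm1 (-0.79, adjusted p = 0.0420) and Bop1 (-0.60, adjusted p = 0.0473). With limma on log2(TPM + 1), which carries the shift given with Max, 1 of the 20 was higher and 1 lower. In none of the lists did a gene pass between the Myc sites or by day of tamoxifen with edgeR, DESeq2 or limma. By edgeR, 0 genes of the lists had an unadjusted p under 0.05 between the sites, where 12.3% of all genes did. By day, 1 of the 5 neighbours and paralogs had one, where 3.51% of all genes did.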

How the data were processed

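Tumor RNA was sequenced by the authors as polyadenylated stranded libraries in the 100 bp paired-end mode. The submitters' processing notes name Trim Galore, FastQC, STAR 2.5.3a, Picard and mm10, and the annotation is not given in the sources used here. The deposited counts are whole numbers per gene and were left unnormalized. A second deposited table gives TPM values (transcripts of a gene relative to all transcripts, scaled by gene length), which set levels of different genes side by side.

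The 9 genes, the gene lists and the tests were chosen with earlier results of these data known. Genes without any count were removed, and the other 21854 were fitted with edgeR 4.0.16 (TMM, glmQLFit, glmQLFTest) in R 4.3.3, and 21261 in the Myc tumors alone. SE is the log2 fold change divided by the root of the F statistic. Named were the 9 genes, Smarcb1 and, of each list, up to 3 genes past the threshold of Shh against Myc tumors with the highest absolute log2 fold change. Alternatives were DESeq2 1.42.0, limma 3.58.1 on log2(TPM + 1), DESeq2 size factors, filterByExpr, no fold threshold, the mouse name scheme, single days or sites, and omission of each tumor. Total counts were 17889968 to 110177889, and 3 counts served as the floor, for counting error only. Mice are separate animals, so that p-values rest on the spread between mice. Scripts were tested on simulated counts. Positions came from GENCODE vM21 and promoter windows from RefSeq (GRCm38.p6).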

Additional observations from a re-analysis of the deposited data

Results flagged for a closer look

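Among groups of 5 or 6 tumors, values were looked at that lay far from the rest of their group by Dixon's criterion at the 95% level, which chance meets in about 1 in 20 groups. Of 60 such groups 7 held one. Myc was low in R26P115 among the intracranial Myc tumors (8.73 TPM, against 95.7 to 225 TPM in the other 5), and so was the sum of Myc, Mycn and Mycl (9.05 TPM, against 97.4 to 227 TPM). The choroid plexus marker sum of R26P115 was 204847 TPM, against 1.02 to 9.73 TPM in the other intracranial Myc tumors. Mycl was low in 29048 among the Shh tumors (35.5 TPM, against 71.0 to 85.9 TPM). In the same tumor the oligodendrocyte marker sum was 6295 TPM (47.4 to 154 TPM in the others) and the choroid plexus marker sum 4638 TPM (0.797 to 7.03 TPM in the others). The pituitary marker sum of 29050A was 16.3 TPM, against 2.51 to 3.24 TPM in the other Shh tumors, and below the 423 and 328 TPM of 43989C and R26P170 given with the intracranial Myc tumors. The part of these cell types in the Myc and Mycl values was not tested.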

How the results depend on the processing

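No paired analysis was possible because the groups hold different mice and the replicate numbers only follow the order of the samples. Over the 9 genes and 5 comparisons, 959 of 1026 alternative fits kept direction and side of the threshold, 53 turned the sign (0 of them with an adjusted p under 0.05 in the alternative fit), 10 lost and 4 gained a call. Between Shh and Myc tumors, Myc, Mycn and Mycl lost their call in R26P mice alone (-3.30, 9.52 and 5.79) and in no other alternative. The count of genes called was 5689, against 3533 at E6 alone and 0 in R26P mice alone (3514 at an unadjusted p under 0.05 in edgeR). Max passed without a fold threshold (-0.49). With limma on log2(TPM + 1), which carries the shift of all genes given with Max, Max went to 0.068, Mxd4 to 0.28 and Mnt to 0.22, and to 0.073, 0.12 and 0.33 against intracranial and 0.062, 0.47 and 0.083 against extracranial Myc tumors. Mxd1 went to -0.23 in R26P mice. Mxd4 against extracranial Myc tumors, near 0 in the fit as planned, was 0.027 with DESeq2, 0.028 with its size factors, 0.0011 with filterByExpr and 0.061 without R26P115 and 29048. Between the Myc sites Myc went to 0.037 with 43990A as intracranial and Max to -0.011 with limma, and DESeq2 called 490 genes in place of 1. Without 43989C and R26P170, 0 genes were called between the sites (2391 at an unadjusted p under 0.05), and by day Myc went to 0.35 and Mxd3 to -0.20. By day, Mxd3 went to -0.20 and Mnt to -0.14 with limma, and DESeq2 called 39 genes in place of 0. The cause of these changes was not tested.

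On omission of single tumors, the value for Shh against Myc ranged from -3.53 to -3.15 for Myc, 7.68 to 8.38 for Mycn and 5.18 to 5.48 for Mycl, always past the threshold. Some signs turned. Between the sites the ranges were -0.50 to 0.034 for Myc (above 0 without R26P115), -0.089 to 0.15 for Max and -0.44 to 0.079 for Mnt, and the count was 0 to 3. By day they were -0.42 to 0.35 for Myc, -0.023 to 1.25 for Mycn, -0.27 to 0.44 for Mxd3, -0.17 to 0.51 for Mxd4, -0.040 to 0.55 for Mxi1 and -0.22 to 0.17 for Mnt, and the count was 0 to 1. Against intracranial Myc tumors they were -0.51 to 0.018 for Mnt, -0.0079 to 0.21 for Mxd1 and -0.025 to 0.29 for Mxi1, and against extracranial ones -0.12 to 0.42 for Mxd3 and -0.17 to 0.089 for Mxd4. Mycn in the Myc tumors rests on at most 88 counts, which limits its comparison between sites.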
